A study of Mus musculus with 6 samples.

Results

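The transcripts described here are those of the proteins that build the cytoplasmic ribosome. Members were the array probes whose annotated gene symbol is Rpl or Rps followed by digits with an optional letter or x, or is Rplp0, Rplp1, Rplp2 or Rpsa, leaving out Rps6k kinases, names ending in -ps and like-genes ending in l. The rule used names alone and no measured value. It took 84 of 45281 probes, for 55 genes, of which 30 encode proteins of the large (60S) subunit, 22 proteins of the small (40S) subunit and 3 proteins of the P-stalk. A RefSeq gene table held 76 protein-coding symbols of this form, so the named probes cover part of the family, and Rps18, Rpl5 and Rpl11 are not analysed here.

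The samples were lens RNA from mice at postnatal day 30, 3 from Tdrd7 null and 3 from Tdrd7 heterozygous mice, each hybridised to 1 Illumina bead array. Tdrd7 is an RNA granule component with Tudor domains, and cataract is known to follow its loss. All samples shared a mixed background of the strains C57BL/6J and C3A.Blia, and the controls carry 1 mutant allele, so no wild-type lens enters the comparison. The labels describe no Cre or transgene, and nothing in them shows that samples of a group were separate animals, so each p-value measures only how these samples vary, and that variation may be technical.

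Each ribosome joins a small subunit, which reads the mRNA, to a large subunit, which forms the peptide bonds, and the P-stalk of the large subunit recruits elongation factors. Ribosomal protein mRNAs are known for a pyrimidine tract at their 5′ end, the terminal oligopyrimidine (TOP) motif, through which mTOR signalling controls their translation. The lens fibre cell makes very large amounts of crystallin and then destroys its own organelles, ribosomes included, while the epithelial cells at the front of the lens go on dividing.

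The start regions of these genes were searched for 2 features for which the family is known, and each was found at a minority of the starts. A window of 30 bases around the annotated start was read from RefSeq promoters of mouse build GRCm38.p6 (15 bases before the start and 15 from it on). Entries were found for 45 of the 55 genes, with 53 starts. The longest run of C and T on the sense strand is in capitals.
Rpl34, chr3:130730323-130730352, minus strand: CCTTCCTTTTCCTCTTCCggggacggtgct
Rpl7a, chr2:26910792-26910821, plus strand: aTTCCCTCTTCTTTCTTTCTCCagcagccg
Rpl14, chr9:120571502-120571531, plus strand: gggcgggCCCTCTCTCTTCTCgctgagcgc
Rpl13a, chr7:45128731-45128760, minus strand: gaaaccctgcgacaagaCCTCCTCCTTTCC
Rps10, chr17:27635230-27635259, minus strand: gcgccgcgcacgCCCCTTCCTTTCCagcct
Rps6, chr4:86857353-86857382, minus strand: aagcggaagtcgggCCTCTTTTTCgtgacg
Rplp2, chr7:141447636-141447665, plus strand: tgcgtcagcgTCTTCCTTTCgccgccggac
Rplp0, chr5:115559452-115559481, plus strand: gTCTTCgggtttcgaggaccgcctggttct
Rps16, chr7:28350674-28350703, plus strand: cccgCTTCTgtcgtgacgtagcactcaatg
A run of at least 8 pyrimidines stood in the windows of Rpl34, Rpl7a, Rpl14, Rpl13a, Rps10, Rps6 and Rplp2, and not in those of Rplp0 and Rps16. Such a run was present at 37.7% of the ribosomal protein starts and at 12% of all 32851 starts in the table. It could lie anywhere in the window, so it need not be the tract at the 5′ end of the mRNA.

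The other feature was the binding motif of ETS factors, searched on both strands of the 300 bases of each entry as CCGGAAG and its reverse complement CTTCCGG. It was present at 39.6% of the ribosomal protein starts and at 8.86% of all starts, and the examples below show it in capitals upstream of the start.
Rps6, chr4:86857441-86857469, minus strand: ttaatctacgcCCGGAAGtaacgcccctc
Rps25, chr9:44407630-44407658, plus strand: cacccattgccCCGGAAGtactctctcga
Rps10, chr17:27635256-27635284, minus strand: agccgcgcagcCCGGAAGagacgctgcgc
Rplp2, chr7:141447532-141447560, plus strand: gaaatgtcttcCTTCCGGtgcaccctttt
Rps2, chr17:24719925-24719953, plus strand: atttatacgtcCTTCCGGctggtgtaggg
Rpl19, chr11:98026660-98026688, plus strand: acttagcgtgaCTTCCGGctacccagagg
The TATA sequence TATAAA occurred at 9.43% of the ribosomal protein starts and at 13.6% of all starts, and the E-box CACGTG at 15.1% against 7.15%. These matches describe letters in a window, and binding was not measured.

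Of the array as a whole, the Tdrd7 transcript was lower in the null samples, at a log2 intensity of 10.06 ± 0.43 against 13.98 ± 0.23 in heterozygous samples (SD, n = 3 each), a difference of −3.92 ± 0.26 (SE; limma, adjusted p = 0.00118). The number of probes detected ran from 14826 to 16204 on null arrays 4, 5 and 6 and from 12655 to 15640 on heterozygous arrays 1, 2 and 3. Null array 5 and heterozygous array 2 stood apart, with best correlations across probes of 0.963 and 0.947, against at least 0.982 for every other array. Defining lens genes were present, with 9 of 12 listed among the genes tested. Precision is limited by 3 samples a group, for which the smallest p of an exact two-sided permutation test is 0.1.

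Ribosomal protein transcripts were readily measured. Of the 84 probes, 67 (79.8%) were detected on all 6 arrays at a detection p under 0.05, against 23.5% of all probes, and 49 of the 55 genes had at least 1 such probe. The filter of detection on at least 3 arrays kept 71 probes of 51 genes (29 of the 60S subunit, 19 of the 40S subunit and 3 of the P-stalk). Of the 13 probes left out, 10 were detected on no array and 3 on 1 or 2. Rpl17, Rps20, Rps23 and Rpsa, the laminin receptor protein of the small subunit, had only probes detected on no array. Each gene is represented below by its probe with the highest mean, and the level of 1 probe is not set against that of another, since probes differ in brightness for the same amount of RNA. Rplp1, Rpl41 and Rpl38 came to within 2-fold of the brightest probe of every array, where saturation was not tested, so small differences there do not show equal levels.

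No ribosomal protein gene passed an adjusted p of 0.05 between null and heterozygous lenses in limma, which called 0.212% of all 8944 genes tested. The count was 0 of 51 genes and 0 of 71 probes, where 27 of all 14902 probes passed (0.181%). At an unadjusted p under 0.05 there was 1 gene, Rpl34, lower in null lenses, which is 1.96% of the members against 9.17% of all genes. Of the single probes 2 of 71 were at that level, those of Rpl34 and a dimmer probe of Rpl31 that was higher, against 8.72% of all probes. The median log2 difference, null minus heterozygous, was −0.10 over the 51 genes, with a range from −0.54 to 0.51, and 0.02 over all genes. The 95% interval of the difference lay within 1 of 0 on the log2 scale, that is within 2-fold, for 48 of the 51 genes (94.1%) and for 75.2% of all genes. The exceptions were Rpl30, Rps2 and Rps25. The members were also brighter than all genes tested, with a median level of 13.22 against 6.48 in null lenses. No share was taken among genes of like brightness. Because RNA came from whole tissue, fewer cells of a type and less RNA per cell cannot be told apart.

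**Figure D1:**
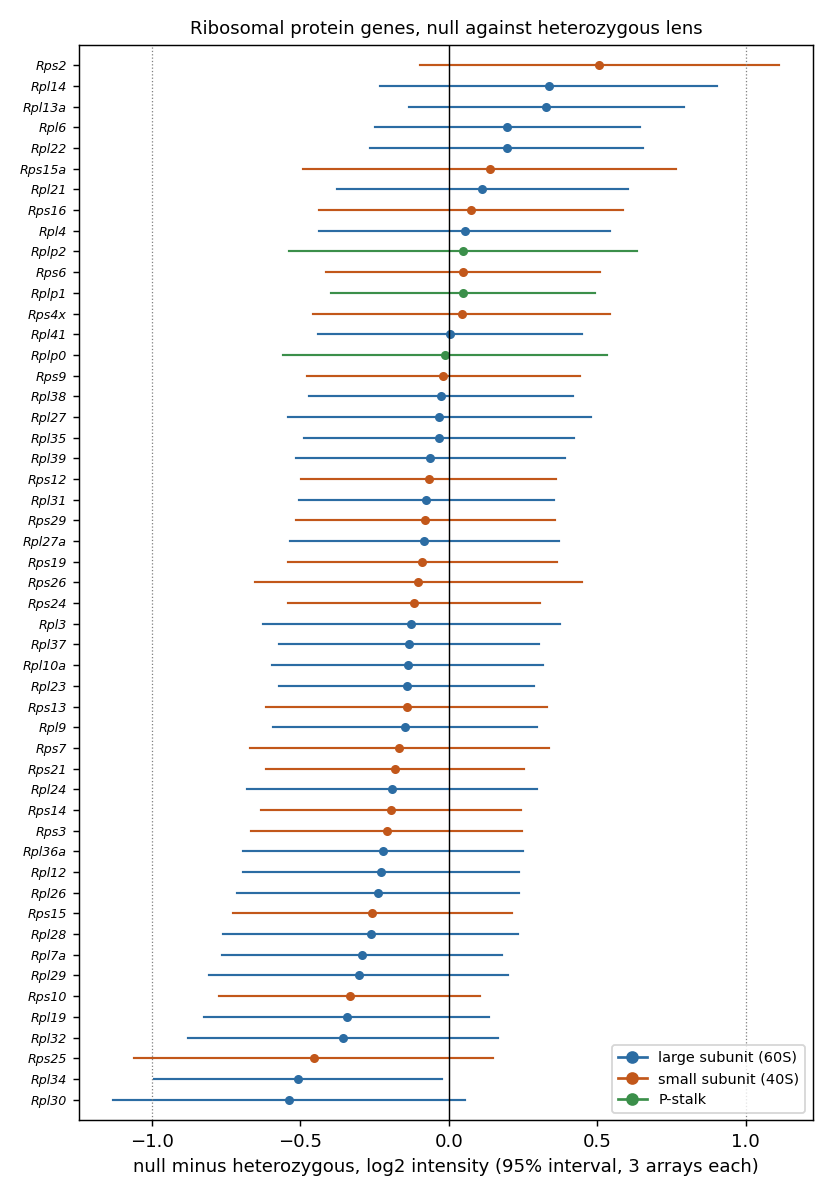
Difference in log2 intensity, null minus heterozygous, of 51 ribosomal protein genes, 1 probe per gene, in order of size. Points are limma estimates and lines 95% intervals (3 arrays each group), coloured by subunit, and the dotted lines stand at 2-fold. All intervals but that of Rpl34 cross 0, and those of Rpl30, Rps2 and Rps25 reach past 2-fold.

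More of these genes had a negative than a positive difference, and the sizes were small. A lower mean in null lenses was seen for 37 of 51 genes (72.5%) against 46.8% of all genes tested, and a higher mean for 14 of 51, against 53.2% of all genes. The 14 include Rpl6, which was detected on 3 of 3 null and 0 of 3 heterozygous arrays. Among the 49 genes with a probe detected on all 6 arrays, 37 were lower and 12 higher. For the 60S proteins 22 of 29 were negative, with a median of −0.13. The 40S proteins gave 14 of 19 and a median of −0.10, and the P-stalk proteins 1 of 3 and a median of 0.05. The groups were apart, without overlap, for 9 genes (17.6%, against 15.5% of all genes tested), 8 of them lower and 1 higher in null lenses, against 7.75% and 7.7% of all genes. The lower ones were Rpl34, Rpl30, Rps10, Rpl19, Rpl32, Rps14, Rpl23 and Rps24, and the higher one was Rpl13a. Among the 37 members with a mean log2 intensity above 12 the median difference was −0.12, and among the 163 other genes above that brightness it was 0.05. The 51 genes are not independent of each other, since they share the 6 samples, so the counts of signs are given as descriptions with no test.

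The negative median was smaller without heterozygous array 2. The mean over the 51 genes, relative to each gene's heterozygous mean, was −0.04, −0.18 and −0.06 on null arrays 4, 5 and 6 and −0.07, 0.09 and −0.02 on heterozygous arrays 1, 2 and 3. Null arrays 4 and 6 lay within the range of the heterozygous arrays, and null array 5 lay below it. Of the 51 genes, 24 had their highest value on heterozygous array 2 (47.1%, against 25% of all genes) and 21 their lowest on null array 5 (41.2%, against 20.8% of all genes). Without heterozygous array 2 alone the median was −0.05, with 34 genes lower and 17 higher, and without null array 5 alone it was −0.09, with 38 lower and 13 higher. Without both, which are also the arrays that stand apart, it was −0.06, with 31 genes lower and 20 higher. The raw arrays carry no replicate number, but the series matrix columns do, and those of replicate 2 in each group are rescalings of null array 5 and heterozygous array 2. On the quantile normalized series matrix values the members' mean null minus heterozygous difference was 0.02 within replicate 1, −0.26 within replicate 2 and −0.05 within replicate 3. It was far from 0 in 1 pair of 3, and the pairing of replicate 1 is uncertain.

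**Figure D2:**
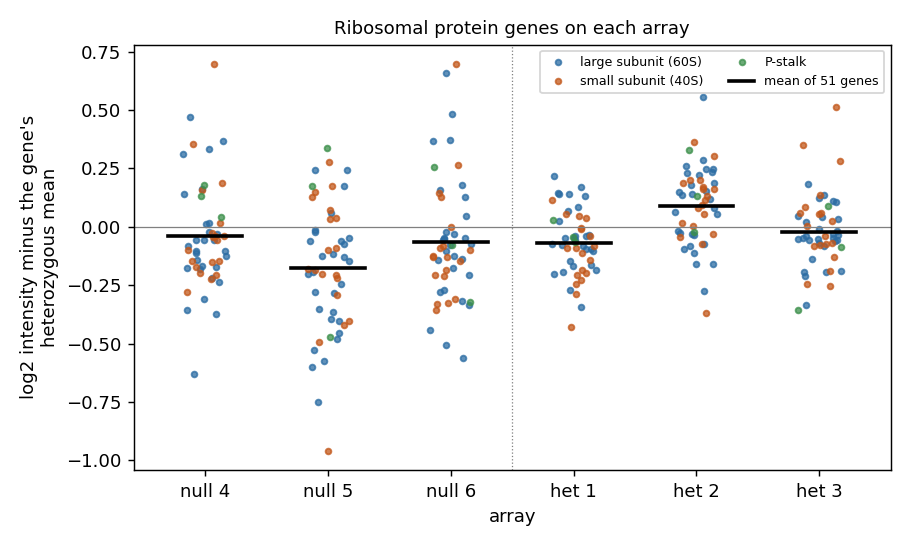
Log2 intensity of 51 ribosomal protein genes on each array, minus the gene's mean over the heterozygous arrays, with null arrays on the left and heterozygous arrays on the right. Each point is a gene, coloured by subunit, and bars are means of the 51 genes, which run from −0.18 on null array 5 to 0.09 on heterozygous array 2.

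The levels of other cells' markers also differed between arrays. Of 15 listed leucocyte and macrophage markers, 10 of the 11 tested were higher in null lenses (median difference 2.81). Of the 11, 1 passed the adjusted threshold and 8 were at an unadjusted p under 0.05 (limma), against 0.212% and 9.17% of all genes tested. The log2 of the summed level of the 11 was 9.51, 12.99 and 10.86 on null arrays 4, 5 and 6 and 8.14 to 8.26 on heterozygous arrays. Ptprc was detected on no array. Of 9 lens epithelium markers, 8 were tested and 6 were higher, and their log2 summed level was 12.64 to 13.42 on null arrays and 10.74 on heterozygous array 2, against 13.64 and 13.23 on heterozygous arrays 1 and 3. Npnt of that list was detected on no array. Retinal markers were higher in null lenses for 7 of 7 tested, and their log2 summed level was 9.95 to 10.46 on null arrays and 8.13, 10.13 and 9.85 on heterozygous arrays 1, 2 and 3, so heterozygous array 1 was low. Red blood cell markers were lower for 3 of 3 tested, with log2 summed levels of 7.57, 7.77 and 9.39 on null arrays 4, 5 and 6 and 7.31, 9.11 and 9.57 on heterozygous arrays 1, 2 and 3, and Hbb-b2 and Alas2 were detected on no array. Pigment markers were lower for 3 of 3 tested, with log2 summed levels of 6.29 to 6.65 on null arrays and 6.68, 8.06 and 6.74 on heterozygous arrays 1, 2 and 3, so heterozygous array 2 was high, and Tyr and Mlana were detected on no array. The defining lens genes were lower in null lenses for 7 of 9 tested (median difference −0.04). Their log2 summed level was 18.01 to 18.12 on null and 18.05 to 18.11 on heterozygous arrays. The part of other cells in the ribosomal protein values was not tested.

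The P-stalk proteins, which are often taken as reference genes, had differences near 0 (given ± SE from limma here and below). Rplp0, the base of the stalk, was at 9.02, 8.37 and 9.10 on null arrays 4, 5 and 6 and at 8.77, 8.82 and 8.93 on heterozygous arrays 1, 2 and 3. Null array 5 was low and the other null values lay above all heterozygous ones. The means were 8.83 ± 0.40 and 8.84 ± 0.08 (SD, n = 3 each), a difference of −0.01 with a 95% interval from −0.56 to 0.53. A much dimmer probe of Rplp0, detected on 2 of 3 null arrays, gave −0.45 ± 0.22 (limma, adjusted p = 0.608) with no overlap between groups. Rplp1, which with Rplp2 forms the arms of the stalk, was at 15.18, 15.31 and 15.06 in null and 15.09, 15.27 and 15.05 in heterozygous lenses, so the groups overlapped nearly fully. Its difference was 0.05, with an interval from −0.40 to 0.49. Rplp2 was at 13.71, 13.92 and 13.26 in null and 13.61, 13.91 and 13.23 in heterozygous lenses, again with full overlap, and differed by 0.05, with an interval from −0.54 to 0.64.

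In the large subunit the lower values were led by Rpl34 and Rpl30. Rpl34 was at 12.47, 12.22 and 12.26 on null arrays 4, 5 and 6 and at 12.55, 13.06 and 12.86 on heterozygous arrays 1, 2 and 3. Every null value was below every heterozygous one, and null array 4 and heterozygous array 1 lay closest together. The difference was −0.51 ± 0.22 (limma, unadjusted p = 0.0424, adjusted p = 0.548). Rpl30, a protein known to bind its own transcript in yeast, was at 9.91, 10.06 and 10.03 in null and 10.19, 11.09 and 10.33 in heterozygous lenses. The null values were close together and heterozygous array 2 was high, and the groups did not overlap. The Rpl30 difference was −0.54 ± 0.26 (adjusted p = 0.610), while the other Rpl30 probe gave −0.48 ± 0.27 (adjusted p = 0.673), also highest on heterozygous array 2.

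Rpl19 and Rpl32, both used as reference transcripts, lay lower in null lenses without overlap, and neither passed. Rpl19 was at 10.94, 10.82 and 10.73 in null and 11.08, 11.46 and 10.98 in heterozygous lenses, differing by −0.34 ± 0.21 (limma, adjusted p = 0.714). Rpl32 was at 13.19, 12.62 and 13.23 in null and 13.51, 13.28 and 13.31 in heterozygous lenses, differing by −0.36 ± 0.23 (adjusted p = 0.735), and null array 5 was the lowest by far. Rpl7a was at 10.76, 10.53 and 10.61 in null and 10.87, 11.18 and 10.74 in heterozygous lenses, and Rpl29, a small basic protein that also binds heparin, at 11.35, 11.09 and 11.64 in null and 11.50, 11.64 and 11.84 in heterozygous lenses. Their groups overlapped, and the differences were −0.29 ± 0.21 and −0.30 ± 0.22. Rpl23 was at 14.32, 14.23 and 14.30 in null and 14.39, 14.35 and 14.53 in heterozygous lenses, without overlap, but its difference was only −0.14 ± 0.19.

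Fewer large subunit genes were on the higher side. Rpl13a, a reference transcript whose protein also silences translation of inflammatory mRNAs in human monocytes, was at 9.71, 9.55 and 9.86 in null and 9.19, 9.52 and 9.42 in heterozygous lenses. All null values lay above all heterozygous ones, by 0.33 ± 0.21 on average (limma, adjusted p = 0.719). Rpl22, on chromosome 4, was at 8.98, 9.24 and 9.37 in null and 8.93, 8.97 and 9.11 in heterozygous lenses, differing by 0.20 ± 0.20. Rpl21 was at 7.06, 6.60 and 6.93 in null and 6.55, 6.90 and 6.79 in heterozygous lenses, and its 3 tested probes gave differences from 0.11 to 0.17. The probes of Rpl14 and Rpl6 were near background. Rpl14 was detected on 2 of 3 null and 1 of 3 heterozygous arrays and differed by 0.34 ± 0.25, so the size is uncertain. Rpl6 was detected on 3 of 3 null and 0 of 3 heterozygous arrays, with mean signals of 4.78 and 4.59 that lie too close to the detection limit for any fold to be given.

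In the small subunit Rps2 had the largest positive difference among the brightest probes of the 51 genes. Rps2, which lines the channel where mRNA enters the ribosome, was at 15.01, 14.44 and 15.01 on null arrays 4, 5 and 6 and at 13.88, 14.39 and 14.66 on heterozygous arrays 1, 2 and 3. Null arrays 4 and 6 were above every heterozygous array, and null array 5 lay among them. The difference was 0.51 ± 0.27 (limma, adjusted p = 0.648), and the second Rps2 probe gave 0.43 ± 0.27 (adjusted p = 0.724), with null array 5 below heterozygous arrays 2 and 3.

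Rps10 and Rps25 were the small subunit genes with the lowest differences. Rps10, a protein of the subunit head, was at 12.42, 12.12 and 12.31 in null and 12.58, 12.64 and 12.64 in heterozygous lenses. The heterozygous values were nearly equal and all lay above the null ones, and the difference was −0.33 ± 0.20 (limma, adjusted p = 0.690). Rps25, needed by some viral RNAs to start translation, was at 11.65, 10.97 and 11.80 in null and 11.72, 11.85 and 12.21 in heterozygous lenses. The groups overlapped, with null array 5 far below the rest, and the difference was −0.45 ± 0.27 (adjusted p = 0.694).

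Rps6, the substrate of the S6 kinases and a gene of chromosome 4, showed no detectable difference. It was at 12.73, 12.86 and 12.91 in null and 12.56, 12.95 and 12.84 in heterozygous lenses, differing by 0.05 with an interval from −0.41 to 0.51. Rps16 was at 12.38, 12.51 and 12.02 in null and 12.28, 12.43 and 11.97 in heterozygous lenses (difference 0.08 ± 0.23), and Rps15a, a dim probe, at 5.86, 5.30 and 5.77 in null and 5.36, 5.13 and 6.02 in heterozygous lenses (0.14 ± 0.28). The groups overlapped for both. Tdrd7 itself lies on chromosome 4, where only Rps6 and Rpl22 of the tested members lie, with a median difference of 0.12 (0.04 to 0.20 with 1 array left out) against −0.12 for members on other chromosomes.

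Of the genes whose human counterparts are mutated in Diamond-Blackfan anaemia, Rps19, Rps24 and Rps26 had differences near −0.10. Rps10, described above at −0.33, and Rpl26, at −0.24 ± 0.21, are also such genes, and Rpl26 was chosen after its values were seen. The genes named here are not all the members with such counterparts, so no direction is given for the group. Rps19 was at 14.10, 13.88 and 14.00 in null and 13.90, 14.22 and 14.14 in heterozygous lenses, differing by −0.09 with an interval from −0.54 to 0.36. Rps24 was at 14.46, 14.32 and 14.37 in null and 14.49, 14.50 and 14.50 in heterozygous lenses, without overlap, and differed by −0.12 with an interval from −0.54 to 0.31. Rps26 was at 13.51, 13.83 and 13.33 in null and 13.37, 14.02 and 13.58 in heterozygous lenses, with overlap, and differed by −0.10 with an interval from −0.65 to 0.45.

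The members varied less between arrays than other genes. The median SD within a group was 0.18 for the 51 genes and 0.30 for all genes tested, and the median standard error of the difference was 0.21 against 0.25. The smallest SDs over the 6 arrays were those of Rps12 (0.08), Rps24 (0.08), Rpl31 (0.08) and Rps29 (0.10). Rpl31 ran from 13.89 to 13.95 in null and from 13.93 to 14.12 in heterozygous lenses, Rps12 from 14.42 to 14.60 in null and from 14.53 to 14.62 in heterozygous lenses, and Rps29 from 14.53 to 14.58 in null and from 14.53 to 14.79 in heterozygous lenses. The largest SDs were those of Rpl30 (0.43), Rps2 (0.43), Rps25 (0.41) and Rps15a (0.36). Above a mean of 12 the median SD within a group was 0.15 for 37 members and 0.23 for 163 other genes. The members there were also brighter, with a median level of 13.76 in null and 13.88 in heterozygous lenses, against 12.85 and 12.84 for the other genes.

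**Figure D3:**
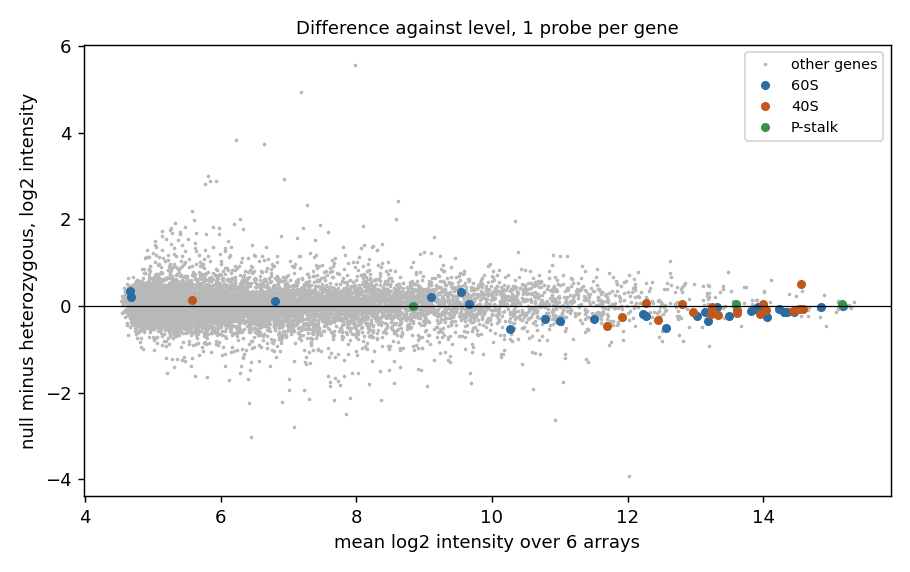
Difference in log2 intensity, null minus heterozygous, against the mean log2 intensity over 6 arrays, 1 probe per gene, for the ribosomal protein genes (coloured by subunit) and all other genes tested (grey). Of the 51 members, 37 lie above a mean of 12, and all 51 lie between −0.54 and 0.51.

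Where a gene had several tested probes, they mostly gave differences of 1 sign. Of 15 such genes, 4 had probes of both signs, and in 3 of these the gap was over 0.5 on the log2 scale. The same share was not taken over all genes with several tested probes, so whether this agreement is particular to the members was not tested. The 3 tested Rpl31 probes, from brightest to dimmest, differed by −0.08, 0.17 and 0.52. The dimmest was at 8.73, 9.07 and 9.09 in null and 8.53, 8.33 and 8.47 in heterozygous lenses. It was higher without overlap, by 0.52 ± 0.21 (limma, unadjusted p = 0.0307, adjusted p = 0.511), while the groups overlapped for the other Rpl31 probes. Probes of Rps24 gave −0.12, 0.15 and 0.46, and those of Rps13 gave −0.14 and 0.37, the last of these detected on 2 of 3 null and 1 of 3 heterozygous arrays. The second probe of Rps3, a protein at the mRNA entry site, was at 11.99, 12.74 and 11.79 in null and 13.29, 11.99 and 11.84 in heterozygous lenses. It was high on null array 5 and heterozygous array 1. The brighter Rps3 probe was highest on heterozygous array 1 but lowest on null array 5, at 13.39, 13.03 and 13.25 in null and 13.55, 13.40 and 13.35 in heterozygous lenses. The second Rpl29 probe was at 9.25, 10.47 and 9.16 in null and 9.46, 10.38 and 9.61 in heterozygous lenses, so 1 array of each group, null array 5 and heterozygous array 2, was high. Ribosomal protein genes have many processed pseudogenes of near-identical sequence, and which transcripts each probe matches was not tested.

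**Figure D4:**
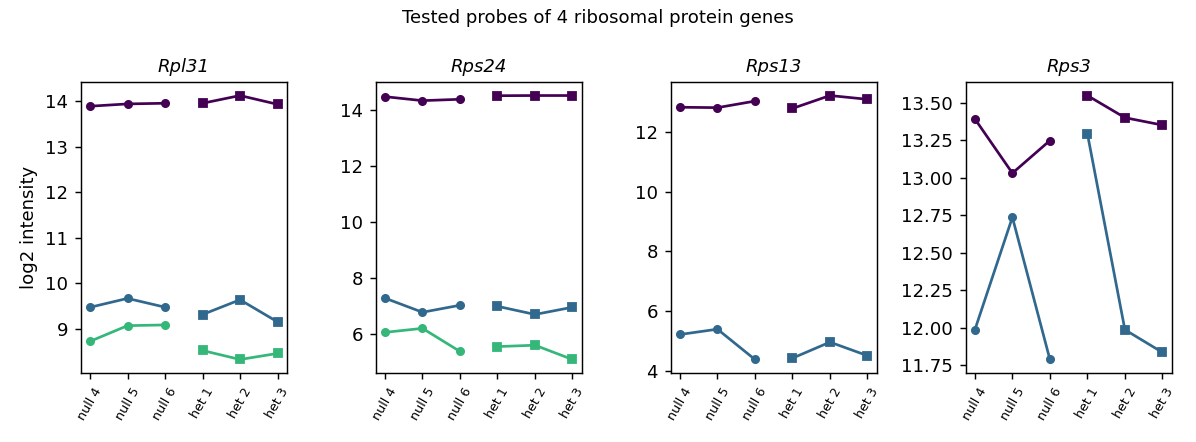
Log2 intensity of each tested probe of Rpl31, Rps24, Rps13 and Rps3 on null arrays (circles, left) and heterozygous arrays (squares, right), with 1 line per probe. The dimmest of the 3 probes of Rpl31 is higher on all 3 null arrays while its other probes are not. The lower line of Rps3 peaks on null array 5 and heterozygous array 1. The axes differ between panels.

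Members with and without the start features had overlapping ranges of differences. The 19 tested genes with a pyrimidine run had a median difference of −0.06, from −0.51 to 0.34, and the 24 without one had −0.14, from −0.45 to 0.51. The 19 with the ETS motif had a median of −0.08 and the 24 without it −0.10. Rpl34, the lowest of the genes with a run, and Rpl14, the highest, both have long runs in the windows shown above.

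Other genes of translation were set beside the members, from lists that held 0 genes past the adjusted threshold (limma). Of proteins of the cytoplasmic ribosome outside the naming rule, 1 of 5 was tested, Rps3a1, averaging 9.60 ± 0.26 in null and 10.42 ± 0.29 in heterozygous lenses (SD, n = 3 each), a difference of −0.83 ± 0.24 (unadjusted p = 0.00648, adjusted p = 0.296), which is larger than that of any member. Of 9 paralogues and like-genes 5 were tested and 4 were on the higher side, Rps27l by 0.31 ± 0.30 and Rpl7l1 by 0.18 ± 0.23, while Rpl22l1, a paralogue of Rpl22, averaged 5.79 ± 0.65 in null and 6.90 ± 0.56 in heterozygous lenses (difference −1.12 ± 0.37, adjusted p = 0.408). Mitochondrial ribosomal proteins, which serve the organelle's own ribosome, gave 71 tested of 76, with 26 higher, 45 lower and a median of −0.07. At an unadjusted p under 0.05 they had Mrpl3 at 0.68 ± 0.22 and Mrpl57 and Mrpl28 at −0.58 ± 0.21 and −0.61 ± 0.22. That is 3 of 71, where 9.17% of all genes tested were at that level.

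Elongation factors and other mRNAs with a TOP tract had a median near 0. Of 21 listed 19 were tested, 8 higher and 11 lower, with a median of −0.05 and 0 at an unadjusted p under 0.05, Npm1, a nucleolar chaperone, being the furthest at 0.56 ± 0.27 (limma, adjusted p = 0.604). Ribosome biogenesis factors had 43 of 56 tested, 28 higher and 15 lower, and a median of 0.07. In that list Taf1d, a factor of RNA polymerase I transcription, averaged 6.66 ± 0.26 in null and 7.85 ± 0.15 in heterozygous lenses, differing by −1.19 ± 0.22 (adjusted p = 0.0852), and Ebna1bp2, a nucleolar assembly factor, differed by −1.02 ± 0.26 (adjusted p = 0.226). A dimmer Taf1d probe differed by 0.61, in the opposite direction (adjusted p = 0.495). Both genes passed with array weights (limma, adjusted p = 0.00730 for Taf1d and 0.0310 for Ebna1bp2) and with the replicate block on quantile normalized series matrix values, an alternative chosen after seeing the data (−0.91, adjusted p = 0.0462, and −0.98, adjusted p = 0.0391). Taf1d, but not Ebna1bp2, passed without null array 5 and heterozygous array 2 (−1.28, adjusted p = 0.0234). The highest adjusted p under any alternative was 0.756 for both genes. Of 24 regulators 15 were tested, 6 higher and 9 lower, with a median of −0.15 and a range from −0.96 to 0.45. At an unadjusted p under 0.05 (limma) there were 2 of the 15, lower in null lenses, against 9.17% of all genes tested. Gabpa and Gabpb1, the subunits of an ETS factor known to bind ribosomal protein promoters, averaged 6.04 ± 0.14 and 5.68 ± 0.17 in null and 6.84 ± 0.35 and 6.64 ± 0.65 in heterozygous lenses. Their differences were −0.80 ± 0.24 (adjusted p = 0.319) and −0.96 ± 0.31 (adjusted p = 0.397), and neither passed. Mtor, the other regulator chosen by p, differed by −0.51 and did not pass.

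**Figure D5:**
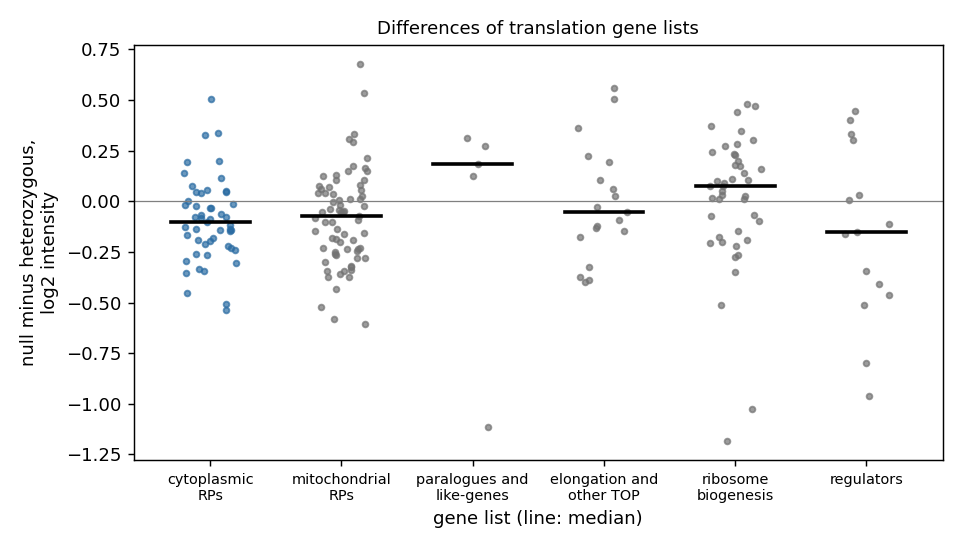
Difference in log2 intensity, null minus heterozygous, of the tested genes in 6 lists, with ribosomal protein abbreviated to RP and cytoplasmic ribosomal proteins in blue. Each point is a gene, and lines are medians, at −0.10 for the cytoplasmic, −0.07 for the mitochondrial, 0.18 for the paralogue, −0.05 for the TOP, 0.07 for the biogenesis and −0.15 for the regulator list. No point passed the adjusted threshold.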

How the data were processed

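The deposited table, per the file headers, gives 1 intensity for each of 45281 probes and array on a linear scale, with a detection p-value beside it. The authors' series matrix gives intensity values that are a straight-line rescaling of each raw column, whose method is not given in the sources used here. It was used only as an alternative. RNA was labelled with biotin for the arrays, per the labels' protocols.

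Intensities were corrected, quantile-normalized and log2-transformed with neqc in limma 3.58.1 (R 4.3.3, offset 16). The 14902 probes with a detection p below 0.05 on 3 or more arrays were fitted with lmFit and eBayes (null minus heterozygous, two-sided), and the p-values were adjusted over all of them by the Benjamini-Hochberg method, with a threshold of 0.05. Symbols came from the platform annotation, where 34885 probes have 1 gene, 18 several and 10378 none. The code was tested on simulated data. Members and lists were chosen with earlier results of these data known. Named genes were the P-stalk and reference transcripts, Rps19, Rps24 and Rps26 (Diamond-Blackfan anaemia), Rps6, up to 8 genes per direction by p, the 4 most and least variable, those whose probes disagree and, of each list, up to 3 by p. Rpl23, Rpl26 and the second probes of Rps3 and Rpl29 were chosen after their values were seen.

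Raw columns carry no replicate number and were assigned by group. Each series matrix column is a rescaling of 1 raw column, which links that array to a number. The main fit held no replicate block, so its standard errors include any variation that same-numbered samples share. In the series matrix, quantile normalized, deviations of same-numbered samples correlated at 0.11, 0.37 and 0.585. Differently numbered samples correlated at −0.45 to 0.16, the highest being null replicate 3 with heterozygous replicate 1. For the replicate block and the differences within replicates the numbers were taken as pairing, from the data alone. These values do not bear out the pairing of replicate 1. Without that normalization same-numbered samples correlated at −0.01, 0.25 and 0.57.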

Additional observations from a re-analysis of the deposited data

How the results depend on the processing

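Of 18 alternatives, each gave 0 ribosomal protein genes past the adjusted threshold, and 17 of 27 named members kept their sign in all of them. The adjusted count over all probes, 27, was 3 after median scaling, 9 without background correction, 11 with an offset of 50, 0 on the series matrix values, 9 on these quantile normalized, 0 without the filter, 266 with array weights, 2 to 30 with 1 array left out and 111 without null array 5 and heterozygous array 2. With the replicate block on the series matrix values it was 0, and on these quantile normalized, an alternative chosen after seeing the data, 35. The block changed no call of a member.

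The members' median of −0.10 was −0.55 on the series matrix values, with or without the replicate block, whose rescaling slopes ran from 0.617 to 1.01 for null and from 0.721 to 1.96 for heterozygous columns and so change bright probes unequally. It was −0.14 after median scaling, where the median of all genes was 0.30, −0.17 with cyclic loess, −0.07 with array weights, and −0.13 to −0.05 with 1 array left out. The range of the members' mean over the arrays, 0.27, was 0.42 after median scaling, 0.37 with cyclic loess, 1.41 on the series matrix values with or without the replicate block, 0.15 to 0.27 with 1 array left out and 0.048 without null array 5 and heterozygous array 2. The count of genes whose probes disagree, 3, was 5 after median scaling, 1 without background correction, with an offset of 50, and on quantile normalized series matrix values with and without the replicate block, 1 to 3 with 1 array left out, and 0 without both arrays. The chromosome 4 median, 0.12, became 0.30 with median scaling, 0.060 with cyclic loess, 0.077 with array weights, 0.047 without the filter and −0.13 on the series matrix values with or without the replicate block. With 1 array left out it ran from 0.044 without heterozygous array 1 to 0.20 without null array 4, and was 0.059 without null array 6. The listed translation genes had 2 calls with array weights and 2 with the block on quantile normalized values, Taf1d and Ebna1bp2 each time, and 1 without both arrays, Taf1d.

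Signs turned only for uncalled differences, with adjusted p of at least 0.654 in limma. After median scaling Rplp0 was at 0.39, Rplp1 at −0.13 and Rplp2 at −0.071. With cyclic loess Rplp1 was at −0.026, Rplp2 at −0.11 and Rps6 at −0.077. With array weights Rplp0 was at 0.066 and Rps15a at −0.064. On the series matrix values, with or without the replicate block, Rplp1 was at −0.53, Rplp2 at −0.49, Rps6 at −0.39, Rps16 at −0.26, Rps27l at −0.023 and Rps2 at −0.0090. With 1 array left out, from lowest to highest, Rplp0 ran from −0.14 to 0.22, Rplp1 from −0.018 to 0.11, Rplp2 from −0.13 to 0.24, Rps6 from −0.068 to 0.13, Rps15a from −0.049 to 0.40, Rps16 from −0.051 to 0.22, Rps26 from −0.25 to 0.080 and Rps29 from −0.13 to 0.0016. Without both arrays Rplp0 was at 0.21, Rps19 at 0.028 and Rps29 at 0.0088. Only 3 arrays a group, dim probes, and probes near the brightest signal, where saturation was not tested, limit what could be seen.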
